A study of Mus musculus with 16 samples.

Results

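The pair of genes described here is Lyz1 and Lyz2, the 2 lysozyme genes of the mouse that lie side by side, out of 24421 gene symbols in the count table. They were chosen by name, with their levels in these libraries already known, so those levels are given as a description and carry no test. RNA was sequenced from macrophages sorted as F4/80+ cells from mouse muscle, in 4 groups of 4 libraries. The groups were WT and GLUD1 KO cells from normal muscle, and WT and GLUD1 KO cells from CTX-injected muscle, taken when damage was greatest. The labels give CTX only by that abbreviation, and give no strain, age or sex, nor how the KO was made, nor whether libraries came from separate mice. The study set out to compare macrophage activation and wound healing genes between the genotypes in both states of the muscle.

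Lysozyme cuts the sugar backbone of peptidoglycan, the polymer of the bacterial cell wall, and the fragments that it frees can be read by receptors such as NOD2. Lyz2, or lysozyme M, is the form of macrophages and neutrophils and is among their most abundant transcripts. Lyz1, or lysozyme P, is best known from the granules of Paneth cells in the small intestine. A widely used myeloid Cre line carries Cre inserted in the Lyz2 gene, and an allele with the insert does not make the normal Lyz2 transcript. The sources used here do not name a Cre driver for this KO, and whether such an allele takes part in any value below was not tested.

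Both genes lie on the minus strand of chromosome 10 of GRCm38, each with 4 exons in GENCODE M21. Lyz1 (ENSMUSG00000069515.6) spans 117287797 to 117292868 and Lyz2 (ENSMUSG00000069516.8) spans 117277331 to 117282321, with 5475 bases and 0 gene models between them. Their coding sequences are 447 bases each and were identical at 425 of these positions (95.1%), with 22 differences and no gap. The part of the transcript after the stop codon was 96.3% identical. The 250 bases before each RefSeq start site were less alike, with 200 of 248 aligned bases identical (80.6%). The first 300 coding bases are shown because they hold 20 of the 22 coding differences, by which a read can be assigned to one gene. Capitals mark the bases at which the genes differ, read from the GENCODE M21 transcripts, 5′ to 3′.

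Lyz1 coding: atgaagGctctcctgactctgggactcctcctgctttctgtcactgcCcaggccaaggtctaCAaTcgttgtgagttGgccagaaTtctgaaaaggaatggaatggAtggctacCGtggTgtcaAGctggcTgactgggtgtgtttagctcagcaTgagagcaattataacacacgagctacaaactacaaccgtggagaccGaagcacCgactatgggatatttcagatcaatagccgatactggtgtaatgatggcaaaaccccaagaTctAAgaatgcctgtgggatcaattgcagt
Lyz2 coding: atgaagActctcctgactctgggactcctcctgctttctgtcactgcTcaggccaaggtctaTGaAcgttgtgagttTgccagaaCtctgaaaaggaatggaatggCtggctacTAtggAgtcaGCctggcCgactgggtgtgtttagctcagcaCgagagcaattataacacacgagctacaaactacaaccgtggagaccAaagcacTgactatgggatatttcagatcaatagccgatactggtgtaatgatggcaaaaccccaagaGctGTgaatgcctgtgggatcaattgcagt

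Stretches between the differences are the same letter for letter. Counted over the transcripts, 16.1% of the positions at which a 50-base read can start in Lyz1 have an exact copy in Lyz2, and the share is 6.22% for 75 bases and 2.06% for 100 bases. No source used here gives the treatment of reads that match both genes. A read of a shared stretch may thus have been dropped or counted for either gene. The promoters are shown because the genes moved apart in these libraries. They are the RefSeq windows of GRCm38.p6 on the minus strand, chr10:117292869-117293118 for Lyz1 and chr10:117282273-117282522 for Lyz2, with capitals where the genes differ or do not align.

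Lyz1 promoter: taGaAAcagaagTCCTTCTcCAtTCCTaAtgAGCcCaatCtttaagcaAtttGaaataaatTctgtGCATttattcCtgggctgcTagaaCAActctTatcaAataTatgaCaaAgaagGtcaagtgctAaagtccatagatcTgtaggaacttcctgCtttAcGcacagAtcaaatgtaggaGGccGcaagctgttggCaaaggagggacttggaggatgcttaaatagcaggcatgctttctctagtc
Lyz2 promoter: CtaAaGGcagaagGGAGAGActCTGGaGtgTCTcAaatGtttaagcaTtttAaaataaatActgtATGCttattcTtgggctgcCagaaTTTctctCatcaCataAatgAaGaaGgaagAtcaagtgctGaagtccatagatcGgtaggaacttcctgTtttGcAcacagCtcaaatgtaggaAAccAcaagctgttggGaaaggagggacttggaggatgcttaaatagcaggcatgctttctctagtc

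The bases nearest the RefSeq start sites, including the run aaatagcaggcatgctttctctagtc, are shared, and the capitals crowd the far end. For Lyz1 RefSeq and GENCODE M21 both start at 117292868. For Lyz2 RefSeq starts at 117282272, inside the GENCODE span that reaches 117282321. The shared run of Lyz2 thus lies inside its GENCODE gene, and the windows of the pair are not equivalent by GENCODE. A pair of short motifs were searched on both strands of the 250 bases. GGAAGT, a core that ETS factors such as PU.1 bind, had 1 match in each gene and a match in 20.0% of 27025 RefSeq promoters. TTNNGNAA, a core of C/EBP sites, had 1 match in each gene and in 36.9% of promoters. A match is a description of letters and not a site shown to be bound.

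Library totals ran from 17051892 to 23097420 counts. CPM values (reads of a gene set to a common library size) below are scaled with TMM factors, which were 1.13 to 1.34 in normal and 0.76 to 0.87 in CTX-injected muscle. This scaling lifts CTX-injected muscle by about 0.62 (log2) in WT and 0.61 in KO against library totals alone, so it touches every injury value but hardly the genotype values or the ratio of the pair. Pan-macrophage markers were detected throughout, with none at 0 in any group. Glud1 itself, which encodes glutamate dehydrogenase, was 218 to 292 CPM in WT and 209.7 to 272 CPM in KO normal muscle. In CTX-injected muscle it was 347 to 391 CPM in WT and 327 to 351 CPM in KO. The genotype difference in Glud1 was -0.09 (SE 0.10, adjusted p = 0.991) and -0.14 (SE 0.10, adjusted p = 0.936) on the log2 scale in edgeR's quasi-likelihood test. The labels do not say which part of the gene is deleted, and a count over the whole gene need not fall when part of it is lost, so this does not check the labels. Xist was 88.9 to 208 CPM in the normal-muscle libraries numbered 5 and 6 and at most 0.128 CPM in the rest, so sex was not balanced between normal and CTX-injected muscle.

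Lyz2 was among the most abundant transcripts of every library. In WT normal muscle Lyz2 stood at 5810 CPM in library 2, 10907 in library 3, 10401 in library 5 and 7613 in library 6 (8683 ± 2401, SD, n = 4). KO normal muscle held 11288 CPM in library 1, 5675 in library 2, 5394 in library 3 and 3838 in library 5 (6549 ± 3261, SD, n = 4). The lowest and the highest Lyz2 level of normal muscle both came from KO, and the genotypes overlapped. WT CTX-injected muscle held 14319, 15823, 15900 and 13506 CPM in libraries 1 to 4 (14887 ± 1174, SD, n = 4). KO CTX-injected muscle held 7682, 9376, 7693 and 7321 CPM (8018 ± 922, SD, n = 4). All 4 WT libraries of CTX-injected muscle were above every other library of the series for Lyz2 in TMM-scaled CPM, but not in percent of all counts. Lyz2 took 1.10 to 1.23% of all counts in WT CTX-injected muscle and 0.629 to 0.760% in KO CTX-injected muscle. In normal muscle it took 0.745 to 1.24% in WT and 0.477 to 1.48% in KO.

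Lyz1 followed another order. In WT normal muscle Lyz1 stood at 1388 CPM in library 2, 907 in library 3, 1393 in library 5 and 1192 in library 6 (1220 ± 229, SD, n = 4). KO normal muscle held 968 CPM in library 1, 1737 in library 2, 1614 in library 3 and 1017 in library 5 (1334 ± 398, SD, n = 4). These groups overlapped, and their means differed by less than the spread within either. In CTX-injected muscle the WT libraries 1 to 4 held 52.7, 71.6, 88.8 and 81.5 CPM (73.6 ± 15.6, SD, n = 4). The KO libraries held 249, 260.0, 286 and 252 CPM (262 ± 16.8, SD, n = 4). The highest WT library of CTX-injected muscle was thus well under the lowest KO library, and both groups were under all 8 libraries of normal muscle.

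**Figure D1:**
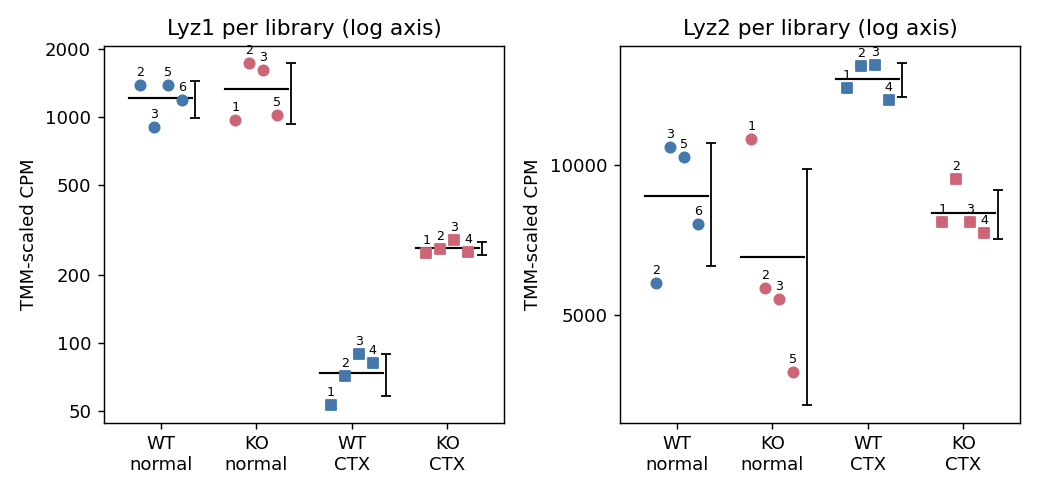
TMM-scaled CPM of Lyz1 (left) and Lyz2 (right) on log axes, 1 point per library with its number, in the 4 groups, with a line at the mean and a bar of 1 SD (n = 4). Lyz1 is 249 to 286 CPM in KO and 52.7 to 88.8 CPM in WT CTX-injected muscle, while Lyz2 is 7321 to 9376 CPM in KO and 13506 to 15900 CPM in WT.

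The order of the groups by mean TMM-scaled CPM, from low to high, was WT CTX, KO CTX, WT normal and KO normal for Lyz1. For Lyz2 it was KO normal, KO CTX, WT normal and WT CTX. Of the neighbours in these orders, KO normal and WT normal muscle overlapped for Lyz1. For Lyz2, KO normal, KO CTX and WT normal muscle all overlapped in turn. In CPM per kilobase of transcript, which sets genes of different length on 1 scale, Lyz2 had a mean level of 6598 in WT and 4976 in KO normal muscle. It had 11312.5 in WT and 6093 in KO CTX-injected muscle. On this scale Lyz2 ranked 1st among 23376 genes with a length in all 4 WT CTX libraries, and between 4 and 5 in the KO CTX libraries. In normal muscle it ranked between 1 and 3 in WT and between 1 and 5 in KO. Lyz1 on the same scale had a mean level of 966 in WT and 1056 in KO normal muscle, at ranks 22 to 34 and 16 to 30. In CTX-injected muscle it had 58.3 in WT, at ranks 849 to 1335, and 207 in KO, at ranks 230 to 279.

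The ratio of the genes does not depend on how libraries are scaled. Lyz1 made up 19.3%, 7.67%, 11.8% and 13.5% of the reads of the pair in WT normal libraries 2, 3, 5 and 6 (13.1% ± 4.81, SD, n = 4). In KO normal libraries 1, 2, 3 and 5 it made up 7.90%, 23.4%, 23.03% and 20.95% (18.8% ± 7.37, SD, n = 4). Among KO normal libraries, library 1 stood apart with a share in the range of WT, and WT library 2 came closest to the 3 high KO libraries. In CTX-injected muscle the share was 0.367%, 0.450%, 0.555% and 0.600% in WT libraries 1 to 4 (0.493% ± 0.105, SD, n = 4). It was 3.14%, 2.70%, 3.58% and 3.33% in KO (3.19% ± 0.373, SD, n = 4). Each library's 95% Wilson interval was at most 0.497 percentage points wide, which covers counting error only. The spread between libraries, not the depth, therefore set the precision of these shares.

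**Figure D2:**
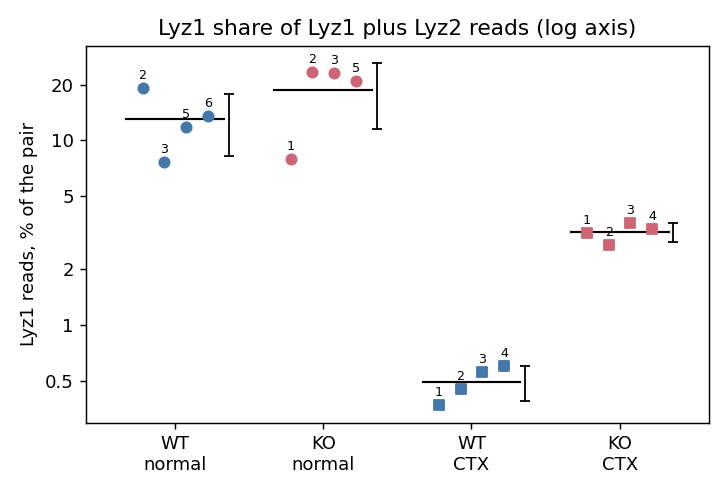
Share of Lyz1 in the reads of Lyz1 plus Lyz2, in percent on a log axis, 1 point per library with its number, with a line at the mean and a bar of 1 SD (n = 4). CTX-injected muscle holds 0.367 to 0.600% in WT and 2.70 to 3.58% in KO, and in normal muscle KO library 1 sits at 7.90% among WT values.

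Per kilobase, Lyz2 exceeded Lyz1 by 4.02 to 11.5 times in WT and 3.14 to 11.2 times in KO normal muscle. The excess was 159 to 261 times in WT and 25.8 to 34.6 times in KO CTX-injected muscle. The sum of both genes was 9903 ± 2291 CPM in WT and 7883 ± 3123 CPM in KO normal muscle (SD, n = 4 each). In CTX-injected muscle the sum was 14961 ± 1178 CPM in WT and 8280 ± 922 CPM in KO (SD, n = 4 each). The sum followed Lyz2, with no overlap between WT and KO CTX-injected muscle.

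Between the genotypes in CTX-injected muscle the genes differed in opposite directions. Lyz1 was 3.55-fold higher in KO (log2 difference 1.83, SE 0.21) and Lyz2 was 1.86-fold lower (log2 difference -0.89, SE 0.27). Neither gene's libraries overlapped between WT and KO. Over the 13649 genes tested, 1.83% were higher in KO without overlap and 3.87% were lower without overlap. edgeR called 1 of these genes at an adjusted p under 0.05 (0.00733%), and that gene was Lyz1, so nothing is read from the count. At an unadjusted p under 0.05 edgeR had 910 genes, and after adjustment DESeq2 called 44 and limma voom 112. For 115 genes the log2 difference was higher than that of Lyz1, and for 544 it was lower than that of Lyz2. The mean log2 ratio of Lyz1 to Lyz2 was 2.75 higher in KO, which is 6.73-fold. Fewer cells of a type and less RNA per cell cannot be told apart in these bulk libraries.

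**Figure D3:**
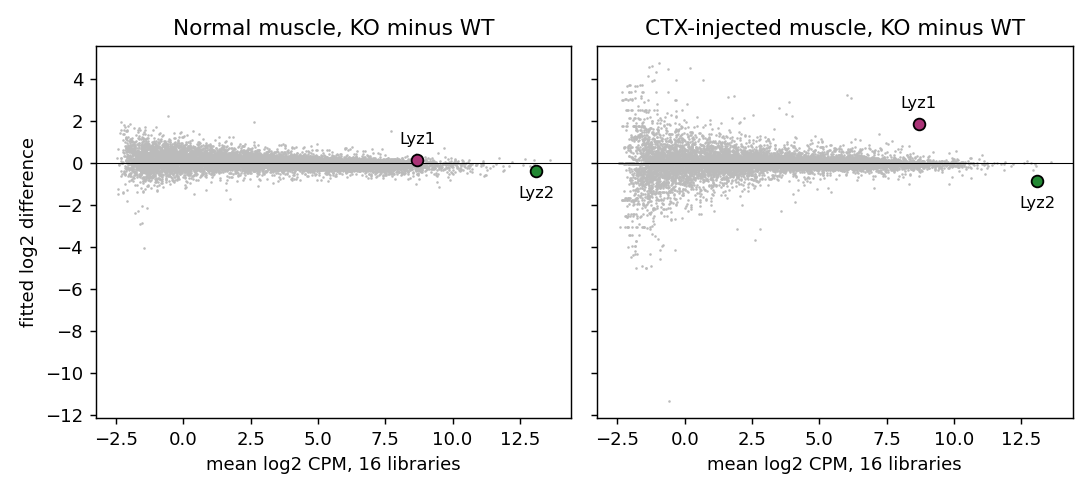
Fitted log2 difference of KO minus WT against mean log2 CPM over the 16 libraries for 13649 genes (grey) in normal (left) and CTX-injected muscle (right), with Lyz1 and Lyz2 marked. In CTX-injected muscle Lyz1 lies at 1.83 and Lyz2 at -0.89, and in normal muscle at 0.13 and -0.41.

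In normal muscle the same contrast was small beside its spread. The log2 difference of KO minus WT was 0.13 (SE 0.20) for Lyz1 and -0.41 (SE 0.27) for Lyz2, and 0.58 for their ratio. Without KO normal library 2 the Lyz1 value was -0.01. Without the libraries numbered 5 and 6 the values were 0.35 for Lyz1, -0.13 for Lyz2 and 0.50 for the ratio. Without KO normal library 1, the library with the most Lyz2, the Lyz2 value was -0.79 and the ratio rose to 1.02. edgeR called 0% of the genes tested in this contrast, with 390 genes at an unadjusted p under 0.05, and DESeq2 and limma voom also called 0. Libraries of the same number deviated together in normal muscle, and with the number as a replicate block, over numbers 2, 3 and 5, the values were 0.24 for Lyz1 and -0.83 for Lyz2. Taken number by number, Lyz1 in KO minus WT was 0.32, 0.83 and -0.45 on the log2 scale. Lyz2 was -0.03, -1.02 and -1.44. Lyz1 thus took both signs, while Lyz2 was lower in KO for each number, by very little for number 2.

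The interaction, the genotype difference in CTX-injected minus that in normal muscle, was 1.70 (SE 0.29) for Lyz1 and -0.49 (SE 0.38) for Lyz2. With the replicate block the Lyz2 interaction came to -0.04, and without KO normal library 1 it came to -0.08. It was -0.74 without the normal-muscle libraries numbered 5 and 6. For Lyz1 the block gave 1.64. The interaction called 0% of the genes tested with edgeR, with 646 genes at an unadjusted p under 0.05, and DESeq2 called 48 and limma voom 11.

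The members lay further apart in CTX-injected than in normal muscle in both genotypes, and these contrasts share their libraries with those above. Xist and cell type markers also differed between the states of the muscle, and their part in these values was not tested. Lyz1 was 16.6-fold lower in CTX-injected than in normal muscle in WT (log2 difference -4.05, SE 0.23). In KO it was 5.10-fold lower (log2 difference -2.35, SE 0.21). Neither comparison had overlapping libraries, as was the case for 34.9% of the genes tested that were lower in WT and 35.5% in KO. Lyz2 was 1.71-fold higher in WT (log2 difference 0.78, SE 0.27), without overlap in TMM-scaled CPM, as for 30.6% of the genes tested. In KO the Lyz2 difference was 0.29 (SE 0.27) and the libraries overlapped. With library totals alone the Lyz2 values were 0.17 in WT and -0.33 in KO, so the sign in KO rests on the scaling. The separation in WT rests on it too. As a share of all counts, Lyz2 took 1.10 to 1.23% in WT CTX-injected and 0.745 to 1.24% in WT normal muscle, which overlap. The Lyz1 values with library totals alone were -4.68 in WT and -2.96 in KO. The log2 ratio of Lyz1 to Lyz2 differed by -4.88 after injury in WT and by -2.71 in KO. Without the normal-muscle libraries numbered 5 and 6, which had Xist, the Lyz1 values were -3.97 in WT and -2.47 in KO. The Lyz2 values were then 0.83 in WT and 0.09 in KO.

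The other genes of the lysozyme family gave almost no reads. Of 8 symbols in the table, Lyzl4 had 41 reads over all 16 libraries, Lalba 10, Spaca5 2, and Lyzl6 and Lyg2 1 each. Lyzl1, Spaca3 and Lyg1 had 0. None passed the filter on low counts. Several of these are known from the testis, and Lalba, which encodes alpha-lactalbumin, from the mammary gland.

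Of the 3 gene models on each side of the pair, the table holds 9530003J23Rik and Cpsf6. 9530003J23Rik, which RefSeq also names Lyzf1, lies at 117232237 to 117238703 and had 3 reads in all. Cpsf6, a pre-mRNA cleavage factor gene at 117344673 to 117380015, was 88.0 ± 5.07 CPM in WT and 91.2 ± 3.79 CPM in KO normal muscle (SD, n = 4 each). In CTX-injected muscle it was 136 ± 3.68 CPM in WT and 123 ± 5.81 CPM in KO (SD, n = 4 each). Its genotype difference in CTX-injected muscle was -0.15 (SE 0.07, adjusted p = 0.764, edgeR), against 1.83 and -0.89 for the lysozymes on the same log2 scale.

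Genes that sense or carry peptidoglycan fragments or other bacterial products were followed as a list of 16, of which 15 passed the filter. None was called by edgeR between the genotypes in either state of the muscle, with 0 in normal and 1 in CTX-injected muscle at an unadjusted p under 0.05. Of all genes tested, 2.86% in normal and 6.67% in CTX-injected muscle had such an unadjusted p. After injury 7 rose and 5 fell in WT, and 8 rose and 5 fell in KO, beside 33.3% of all genes tested that rose in WT and 33.3% in KO. The shares of all genes that fell were 39.4% in WT and 40.2% in KO. The median log2 difference of the list was 0.20 in WT and 0.37 in KO, beside -0.15 and -0.16 over all genes. With library totals alone 5 rose and 7 fell in WT, and 4 rose and 7 fell in KO. On that scaling 1944 of all 13649 genes tested rose and 8345 fell in WT, and 1920 rose and 8398 fell in KO. Slc46a3, a transporter of muropeptides, fell from 54.4 ± 14.9 to 4.39 ± 0.795 CPM in WT (log2 difference -3.63, adjusted p = 6.15e-09). In KO it fell from 71.5 ± 21.1 to 3.91 ± 0.873 CPM (log2 difference -4.19, adjusted p = 2.18e-09). Cd14, a co-receptor for bacterial products, rose from 1982 ± 750 to 10156.5 ± 1568 CPM in WT (log2 difference 2.36, adjusted p = 2.24e-05). Slc15a3, a lysosomal peptide transporter that also carries muramyl dipeptide, rose with a log2 difference of 2.46 in WT and 2.73 in KO. Tlr6, a partner of TLR2 in sensing lipopeptides, rose by 1.71 and 1.58.

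The other antimicrobial effectors, 18 of 20 tested, also had 0 edgeR calls between the genotypes, with 0 in normal and 4 in CTX-injected muscle at an unadjusted p under 0.05. Of all genes tested, 2.86% in normal and 6.67% in CTX-injected muscle had such an unadjusted p. After injury 7 rose and 6 fell in WT, and 7 rose and 2 fell in KO, beside 33.3% of all genes that rose in each genotype and 39.4% (WT) and 40.2% (KO) that fell. With library totals alone the counts were 6 and 9 in WT, and 6 and 7 in KO. Over all 13649 genes tested the counts on that scaling were 1944 and 8345 in WT, and 1920 and 8398 in KO. limma voom called 8 of the list after injury in WT, in place of 13, and 1 between the genotypes in CTX-injected muscle. Irg1, whose enzyme makes itaconate, rose from 39.1 ± 25.3 to 1455 ± 1473 CPM in WT (log2 difference 5.22, adjusted p = 5.14e-06). In KO the log2 difference was 5.74 (adjusted p = 2.38e-06), and the genotype difference after injury was -0.05. Cyba, a subunit of the phagocyte oxidase, rose by 1.53 on the log2 scale in WT and 1.51 in KO. Slc11a1, a metal exporter of the phagosome, rose by 1.92 and 2.02, and Mpeg1, a pore-forming protein, by 1.41 and 1.17. The genotype differences of these 4 effectors in CTX-injected muscle were -0.19 to 0.03 and missed the threshold.

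Factors that drive myeloid genes were taken as a list of 12, all tested, with 0 called by edgeR and 0 at an unadjusted p under 0.05 between the genotypes in either state. After injury 3 rose and 6 fell in WT, and 3 rose and 7 fell in KO, beside the same 33.3% rising and 39.4% (WT) and 40.2% (KO) falling over all genes. With library totals alone 1 rose and 9 fell in each, beside 8345 genes of 13649 that fell in WT and 8398 in KO. On that scaling 1944 genes rose in WT and 1920 in KO. Cebpb, a C/EBP factor, rose from 1923 ± 243 to 4660 ± 117 CPM in WT (log2 difference 1.28, adjusted p = 3.99e-06) and by 1.41 in KO. Cebpd, of the same family, fell with a log2 difference of -1.40 in WT and -1.55 in KO. Irf4 fell with -3.57 and -3.28, and Klf4 with -1.24 and -1.34. The median log2 difference of the 12 factors between KO and WT in CTX-injected muscle was 0.00, beside -0.02 over all genes.

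Genes whose promoters drive other myeloid Cre lines were set beside Lyz2. Csf1r, the receptor of the macrophage growth factor CSF1, was 3150 ± 409 CPM in WT and 2861 ± 204 CPM in KO normal muscle (SD, n = 4 each). In CTX-injected muscle it was 1740 ± 115 CPM in WT and 1653 ± 68.2 CPM in KO (SD, n = 4 each). The genotype difference in Csf1r was -0.14 (adjusted p = 0.991) and -0.07 (adjusted p = 0.988) in edgeR's test. Cx3cr1, a chemokine receptor of monocytes and resident macrophages, Itgam, an integrin of myeloid cells, Adgre1, which encodes F4/80, and S100a8, an alarmin of neutrophils, also passed the filter and were not called between genotypes. After injury Itgam rose by 1.98 in WT and 2.04 in KO, and Cx3cr1 fell with -3.70 and -3.80. Csf1r fell with -0.86 and -0.79. For Adgre1 the WT value of 0.49 (adjusted p = 0.0466) was under the threshold, but it turned to -0.13 with library totals alone. In KO Adgre1 rose by 0.73 (adjusted p = 0.00543), and with library totals alone the value was 0.11 and missed the threshold (adjusted p = 0.601). S100a8 was called in neither genotype (adjusted p = 0.236 in WT and 0.295 in KO). At an unadjusted p under 0.05 edgeR also had 0 of these 5 between the genotypes in either state. Missing the threshold does not show that they were at the same level.

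Among 4826 genes with a mean log2 CPM of at least 5, the closest in pattern to Lyz1 were Axl, Tmcc3, D17H6S56E-5, Alox5 and Pltp. Likeness is the root mean square difference of log2 CPM centred over the 16 libraries, and it was 0.53, 0.55, 0.63, 0.65 and 0.66 for these genes, against 2.20 for Lyz2. Lyz1's own value against its mean was 1.74. Axl, a receptor for the uptake of dying cells, was 320 ± 64.0 CPM in WT and 392 ± 95.1 CPM in KO normal muscle (SD, n = 4 each). It was 30.1 ± 10.4 CPM in WT and 54.0 ± 15.5 CPM in KO CTX-injected muscle (SD, n = 4 each). This log2 difference, 0.84, missed the threshold (adjusted p = 0.445, edgeR). Pltp, a phospholipid transfer protein, went from 1157 ± 309 to 80.6 ± 11.5 CPM in WT and from 925 ± 232 to 105 ± 12.2 CPM in KO. Its genotype difference in CTX-injected muscle was 0.38 (adjusted p = 0.791).

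The closest to Lyz2 were Zfp451, Dnajc3, Nupl1, Mob1a and Rcn2, with likeness values of 0.39, 0.39, 0.39, 0.40 and 0.41, while Lyz2's own value was 0.59. Zfp451, a zinc finger gene, was 29.3 ± 5.41 CPM in WT and 24.9 ± 2.08 CPM in KO normal muscle. It was 54.4 ± 5.68 CPM in WT and 38.5 ± 3.95 CPM in KO CTX-injected muscle. The log2 difference was -0.50 (adjusted p = 0.311, edgeR). Library totals alone gave the same 5 genes for each member, and after the group means were removed 0 of the 5 remained for either, so the likeness lies in the levels of the groups. All these genes share the 16 libraries with the members.

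Neutrophils and monocytes also express Lyz2, and their markers are given beside the pair. The 11 neutrophil markers in the table, of 12 listed, had none at 0 in any group. Their sum in WT normal muscle was 4708 CPM in library 2, 1651 in library 3, 985 in library 5 and 415 in library 6. In KO normal muscle it was 2201 CPM in library 1, 6879 in library 2, 1797 in library 3 and 353 in library 5. The CTX-injected libraries 1 to 4 held 318, 582, 656 and 456 CPM in WT and 1130, 912, 432 and 1352 CPM in KO. Between KO and WT in CTX-injected muscle 0 of the 11 were called. In edgeR 4 of the 11 had an unadjusted p under 0.05, beside 6.67% of all genes tested. The median log2 difference of the 11 was 1.35 against -0.02 over all genes. In CTX-injected muscle the neutrophil sums of KO libraries 1, 2 and 4 were above every WT library. That of KO library 3, which had the highest Lyz1 level of its group, was inside the WT range. In normal muscle library 2 had both the highest neutrophil sum and the highest Lyz1 share of its genotype, in WT and in KO. KO library 5 had the lowest neutrophil sum of normal muscle, with a Lyz1 share of 20.95%.

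The 8 monocyte markers summed to 889 to 1715 CPM in WT and 917 to 1828 CPM in KO normal muscle. They summed to 3794 to 5068 CPM in WT and 4075 to 4383 CPM in KO CTX-injected muscle, with none at 0. The pan-macrophage sum was 18512 to 22505 CPM in WT and 17576 to 19967 CPM in KO CTX-injected muscle. Neither list had a call between the genotypes. The fibroblast sum was 75.9 to 99.9 CPM in WT and 54.3 to 68.7 CPM in KO CTX-injected muscle, with none of its 6 markers at 0. The T and NK cell sum was at most 4.59 CPM in WT, where Ncr1 was at 0, and at most 6.75 CPM in KO CTX-injected muscle. Dendritic cell markers summed to 97.2 to 126 CPM in WT and 79.4 to 120.1 CPM in KO CTX-injected muscle. Endothelial markers summed to 61.5 to 74.1 CPM in WT and 62.8 to 80.5 CPM in KO, and muscle fibre markers to at most 5.72 CPM. Between KO and WT in CTX-injected muscle, 3 of 6 fibroblast markers had an unadjusted p under 0.05 in edgeR (median log2 difference -0.72). So did 3 of 6 endothelial (median -0.21) and 2 of 10 pan-macrophage markers. T and NK cell markers had 2 of 8, dendritic cell markers 1 of 8, and monocyte and muscle fibre markers 0, beside 6.67% of all genes. edgeR called none, and limma voom 2 fibroblast and 1 dendritic cell marker, beside 112 of all genes. After injury 7 of 11 neutrophil markers fell in WT and 1 in KO, and none rose. With limma voom the counts were 3 in WT and 5 in KO, and with library totals alone 9 and 6. Of all 13649 genes tested, 5455 fell in WT and 5664 in KO with limma voom, and 8345 and 8398 with library totals alone. In KO 2 were called by DESeq2, with the stricter low-count filter and in the fit of only the groups compared, and 6 with the replicate block. The KO count was 0 without KO normal library 2, KO CTX-injected library 2 or KO CTX-injected library 3, and 5 without KO normal library 5 or without the normal-muscle libraries numbered 5 and 6. In the edgeR fit with TMM factors 39.4% of all genes fell in WT and 40.2% in KO, and 33.3% rose in each. The counts of that fit, above and below, stand beside these shares. All 8 T and NK cell markers tested and 7 of 8 dendritic cell markers fell in both genotypes, and 1 dendritic cell marker rose in each. Of fibroblast markers 5 of 6 fell in WT and all 6 in KO, of endothelial markers 5 of 6 in each, and of muscle fibre markers 6 of 7 in WT and all 7 in KO. Pan-macrophage markers rose in 7 of 10 cases in each genotype, while 2 fell in WT and 3 in KO. Monocyte markers rose in 3 of 8 in WT and 4 in KO, while 1 fell in each. With library totals alone 5 pan-macrophage markers rose and 3 fell in each genotype, and 3 monocyte markers rose and 3 fell. On that scaling 1944 of all 13649 genes tested rose in WT and 1920 in KO, while 8345 and 8398 fell. The part of the neutrophil, fibroblast, endothelial and other cell type markers in the genotype values was not tested.

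**Figure D4:**
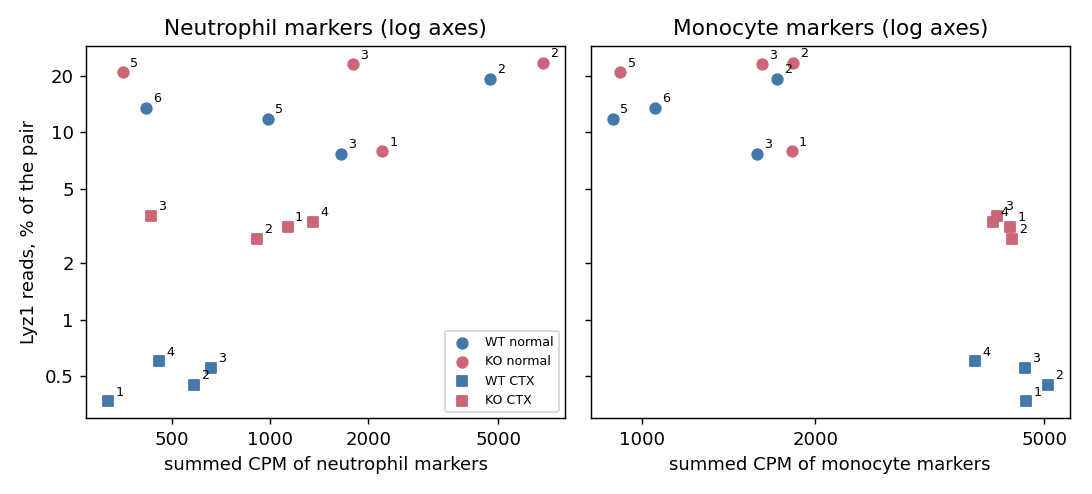
Share of Lyz1 in the reads of the pair, in percent, against the summed CPM of neutrophil markers (left) and of monocyte markers (right), all on log axes, 1 point per library with its number. In CTX-injected muscle KO libraries 1, 2 and 4 lie at neutrophil sums of 912 to 1352 CPM, above the WT range of 318 to 656 CPM, and KO library 3 lies inside it at 432 CPM.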

How the data were processed

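Per the labels' protocols, the libraries were made with SMART-Seq V4, which copies whole transcripts and keeps no strand, from F4/80+ cells. Neither lysozyme gene overlaps another GENCODE gene. The authors deposited raw read counts for each gene symbol. The submitters' processing notes name HISAT2 2.1.0, cutadapt 1.18, FastQC 0.11.7, featureCounts and Subread 1.6.2, with build mm10. Annotation, strand setting and how multi-mapping reads were handled are not given in the sources used here. Of 24421 symbols, 5362 had no read, and 23376 matched a GENCODE M21 length. Totals were 17051892 to 23097420 counts.

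From these counts, edgeR 4.0.16 in R 4.3.3 kept 13649 genes with filterByExpr, scaled with TMM and fitted 1 coefficient per group over 16 libraries. Its quasi-likelihood test gave p-values with Benjamini-Hochberg adjustment, at a threshold of 0.05, in 5 comparisons. This served all genes. Counts of calls over all genes include the members, for which a call is no test, and the members are described by log2 differences and approximate standard errors (SE). Each edgeR SE is the absolute log2 difference divided by the square root of the F statistic of the quasi-likelihood test. The prior count of log2 CPM was 2. The edgeR fit was tested on simulated counts, for KO against WT in normal muscle and with the same spread for every gene. Separate mice are not stated, and the p-values therefore speak only to variation among these libraries, possibly technical. Pairs of libraries within a group differed beyond sampling noise (chi-square per degree of freedom at least 6.03), and none was counted as a duplicate. Same-numbered libraries of normal muscle deviated together (correlations 0.64, 0.57 and 0.24), which comes from the data, not from a label. In CTX-injected muscle they did not (-0.12 to 0.00).

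The members and the 13 lists were chosen with earlier results of these data known. Named genes are the members, the 5 nearest in pattern to each, up to 4 called members of smallest p per list and comparison, 3 neighbours on each side, Glud1 and 5 genes that drive myeloid Cre lines. Called markers are given as sums. Some genes called under an alternative are not reported here. Alternatives were other scalings, DESeq2 1.42.0, limma 3.58.1 (voom), other filters, only the groups compared, a replicate block, and libraries left out.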

Additional observations from a re-analysis of the deposited data

Results flagged for a closer look

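In KO normal muscle, library 1 stood apart with a Lyz1 share of 7.90% of the reads of the pair, where the other libraries had 20.95 to 23.4%. It also had the highest Lyz2 level of normal muscle, 11288 CPM. Cx3cr1 stood apart in WT normal library 2, at 243 CPM. Cpsf6 stood apart in KO CTX-injected library 2, at 131 CPM. Among 44 groups of 4 values examined, these 3 had a library far from the others, and chance gives such a gap in about 1 in 20 groups.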

How the results depend on the processing

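The direction of the Lyz1 and Lyz2 differences between KO and WT in CTX-injected muscle, and of their ratio, was the same under each alternative run. When 1 library was left out, Lyz1 there ran from 1.70 to 1.93, Lyz2 from -0.98 to -0.85 and the ratio from 2.62 to 2.85 (log2). In normal muscle Lyz1 ran from -0.013, reversed without KO library 2, to 0.27, Lyz2 from -0.79 to -0.19 and the ratio from 0.32 to 1.02. Without libraries 5 and 6 Lyz1 was 0.35 and Lyz2 -0.13 there, and the interactions were 1.49 and -0.74. Injury values ran from -4.18 to -3.92 for Lyz1 in WT, -2.48 to -2.20 in KO, 0.62 to 0.90 for Lyz2 in WT and 0.09 to 0.69 in KO. The Lyz1 interaction ran from 1.57 to 1.86 and that of Lyz2 from -0.68 to -0.078, the last without KO normal library 1. The replicate block gave -0.042 for the Lyz2 interaction and 6 called genes between the genotypes in CTX-injected muscle, in place of 1, and the numbers did not pair the libraries there. The block reversed no direction of the members. In CTX-injected muscle DESeq2 called 44 genes, limma voom 112, and the fit of only the groups compared 3. Without the normal-muscle libraries numbered 5 and 6 there were 2 calls, and 1 to 2 with 1 library left out, the 2 without KO library 2. Besides the members, whose calls are no test, the fibroblast gene Dcn was called in the fit of only the groups compared and in that without libraries 5 and 6. For the interaction DESeq2 called 48 genes, limma voom 11, and 1 (Dcn) was called without libraries 5 and 6. With 1 library left out 0 to 2 were called, with 2 without KO normal library 5 (Dcn and Igfbp7) and 2 without KO CTX-injected library 2. These genes were named after their values were seen, and the cause of the changed counts was not tested. Library totals alone moved the median of all genes after injury by -0.62 in WT and -0.61 in KO. They gave -4.68 and -2.96 for Lyz1 and 0.17 and -0.33 (reversed) for Lyz2, and rising calls were 18.9% and 18.6% of calls in place of 45.8% and 45.3%. They also reversed injury values of Adgre1 in WT (-0.13), of Glud1 (-0.068 in WT and -0.11 in KO) and of Cpsf6 in KO (-0.18). No fit with only the groups compared was run for the interaction, which needs all 4 groups. The members' depth was high in each library, so the spread between libraries limits these values more than counting error does. How reads of shared stretches were assigned was not tested, and Lyz1 was only 0.367 to 0.600% of the pair's reads in WT CTX-injected muscle.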
